A study of Mus musculus with 24 samples.

Results

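Elastin and the microfibril genes, here Eln, Fbn1, Fbn2, Mfap2, Mfap4, Mfap5, Emilin1 and Emilin2, encode the core and the sheath of the elastic fibre. They were chosen by name, and each of the 8 was found as 1 row among the 40141 genes of the deposited count table. All 8 passed the filter on low counts, as did 24623 genes in all. RNA of mouse aorta was measured in 24 libraries, which asked how the loss of Cthrc1, a gene for a secreted protein made by injured arteries, bears on a model of aortic dissection. Per the labels the animals were WT or cthrc1-/- and received PBS or Ang-II/BAPN. Ang-II is the pressor hormone angiotensin II, and BAPN is β-aminopropionitrile. Each genotype and treatment had 6 libraries, 3 with titles that start with F (the F set) and 3 with titles that do not (the plain set). The labels give no strain, age, dose, duration or way in which the knockout was made, and do not say whether animals were pooled.

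Elastic fibres let the aorta stretch with each heartbeat and recoil. Smooth muscle cells secrete tropoelastin, the product of Eln, which is deposited on microfibrils built from fibrillins and the proteins that bind them. Lysyl oxidases then oxidise lysines of tropoelastin, and the aldehydes so formed cross-link the chains. BAPN blocks the lysyl oxidases, so that elastin made during treatment is poorly cross-linked. Most arterial elastin is laid down around birth, and loss of FBN1 function causes Marfan syndrome in humans, in which the aorta dilates and dissects.

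Short stretches of coding sequence show the features that this biology turns on. Both come from protein-coding transcripts of the GENCODE M21 annotation (build GRCm38) and were read in the longest open frame, 5′ to 3′. In the Eln stretch, codons 116 to 135 on chromosome 5, capitals mark a pair of lysine codons separated by alanine codons, the arrangement in which lysines oxidised by lysyl oxidase, the enzyme that BAPN inhibits, form cross-links.
Eln: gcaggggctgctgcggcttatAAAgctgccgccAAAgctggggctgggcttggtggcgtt
The Eln frame held 12 such lysine pairs, with 2 or 3 alanine codons between them, and 38 lysine codons among 860 codons in all. Glycine and alanine made up 36.2% and 21.0% of its codons. In the Fbn1 stretch, codons 1540 to 1549 on chromosome 2, capitals mark the only arginine-glycine-aspartate motif of the frame, through which fibrillin-1 binds integrins.
Fbn1: atccgacccCGGGGAGACaatggagataca
The Fbn1 frame had 2873 codons, of which 12.6% encoded cysteine, against 0.232% in that of Eln. Fibrillins are made largely of cysteine-rich EGF-like domains.

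Libraries held between 39002048 and 82040703 counts, and mitochondrial genes took 9.59 to 31.9% of them. The label check on the knockout was clear: Cthrc1 lay at 1.87 ± 0.378 (SD, n = 6) CPM, counts scaled to library size, in WT PBS libraries and at 69.0 ± 32.7 in WT Ang-II/BAPN libraries. In knockout libraries it lay at 0.366 ± 0.175 and 4.97 ± 3.21 CPM, below every WT library of the same treatment. Xist was at 188 CPM or above in every F library and at 14.5 CPM or below in every plain library, while Ddx3y, a gene of the Y chromosome, reached 1.32 CPM in the F set and was at least 43.5 CPM in the plain set. In 5 libraries the small nuclear RNA Rn7sk exceeded 4 CPM: replicates 2 and 3 of WT PBS F, replicate 2 of knockout PBS F, replicate 1 of knockout Ang-II/BAPN F and replicate 2 of knockout PBS plain. Intestinal transcripts, with 7 markers summing to 97.5 CPM or more, were found in 4 WT Ang-II/BAPN libraries, namely all 3 of the plain set and replicate 2 of the F set. Summed markers of the kidney tubule ran from 50.7 to 512 CPM (median 209) in WT PBS and from 13.95 to 2769 CPM (median 19.6) in WT Ang-II/BAPN libraries. In knockout libraries they ran from 74.1 to 2518 CPM (median 861) under PBS and from 3.32 to 591 CPM (median 22.9) under Ang-II/BAPN. Defining smooth muscle markers were above 0 in each genotype and treatment. In whole tissue, fewer cells of a type and less RNA per cell cannot be told apart.

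Levels of different genes were compared per length, as the authors' FPKM, in which fragments are scaled to transcript length and library size. Eln was the most abundant of the 8 genes in 22 of 24 libraries and Mfap4 in the other 2. Fbn2 was the least abundant in all 24. In WT PBS aorta the mean FPKM fell from Eln (417 ± 353, SD, n = 6) through Mfap4 (180 ± 55.9), Mfap5 (26.9 ± 13.3), Emilin1 (22.1 ± 5.27), Fbn1 (18.6 ± 11.6), Mfap2 (8.46 ± 2.23) and Emilin2 (1.62 ± 0.685) to Fbn2 (0.0347 ± 0.0256). The ranges of neighbours overlapped for Eln and Mfap4, and along the run from Mfap5 to Mfap2. They did not overlap between Mfap4 and Mfap5, Mfap2 and Emilin2, or Emilin2 and Fbn2. Knockout PBS aorta had the same order. Under Ang-II/BAPN, Fbn1 took the fourth place from Emilin1 in both genotypes, at 51.2 ± 15.6 FPKM in WT and 60.2 ± 25.4 in knockout aorta, though its range overlapped that of Emilin1. CPM divided by exon length gave the same order in every genotype and treatment.

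**Figure D1:**
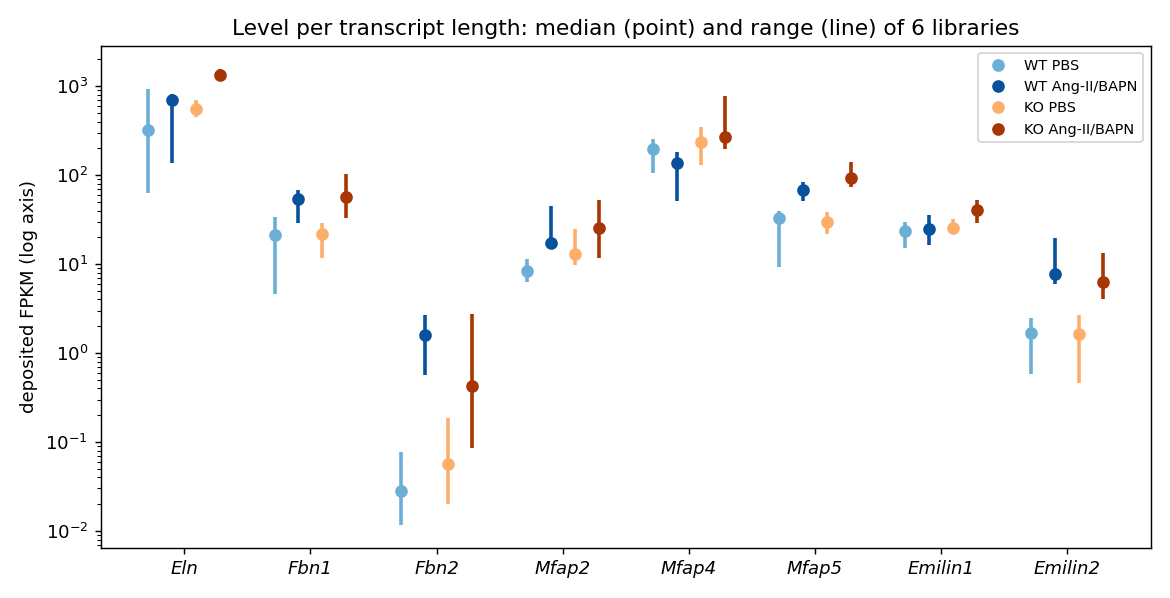
Deposited FPKM of the 8 genes on a log axis, with the median (point) and the range (line) of the 6 libraries of each genotype and treatment. Eln and Mfap4 lie highest, Fbn2 lies lowest, and treated knockout Eln libraries (1231 to 1571 FPKM) form the tightest cluster near the top.

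Under Ang-II/BAPN, WT aorta held more RNA of both fibrillins, of Mfap2 and Mfap5, and of Emilin2. No significant change was found for Eln, Mfap4 or Emilin1. Of the 8 genes 5 rose and 0 fell (quasi-likelihood test of edgeR at an adjusted p under 0.05), with a median log2 fold change of 1.11 against 0.01 over all genes tested. Over all genes 24.8% were called in this comparison. In knockout aorta 6 of 8 rose and 0 fell, with a median of 1.36 against -0.03 over all genes, of which 11.4% were called. Under PBS the genotypes did not differ significantly in any of the 8 genes. That comparison did not call Cthrc1 itself either (log2 -2.35, SE 0.42, edgeR adjusted p = 0.18), although all knockout libraries lay below all WT libraries. The 0 calls under PBS thus do not show that the genotypes were alike. Eln, Mfap4 and Emilin1 were higher in knockout than in WT aorta under Ang-II/BAPN. That made 3 of 8 higher and 0 lower, with a median of 0.63 against 0.00 over all genes, of which 6.13% were called. Without the 5 libraries with high Rn7sk, left out after seeing the data, 5 of 8 were called in the WT response, 5 in the knockout response and 2 between treated genotypes, where that fit called 4354, 2516 and 828 genes in all, against 6097, 2813 and 1510 with all libraries. The fit without high Rn7sk kept only replicate 1 of WT PBS F. A fit of only the 12 libraries of the treated genotypes called 0 of the 8 and 0 genes in all. Its edgeR adjusted p was 0.0985 for Eln, 0.0965 for Mfap4 and 0.0876 for Emilin1.

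**Figure D2:**
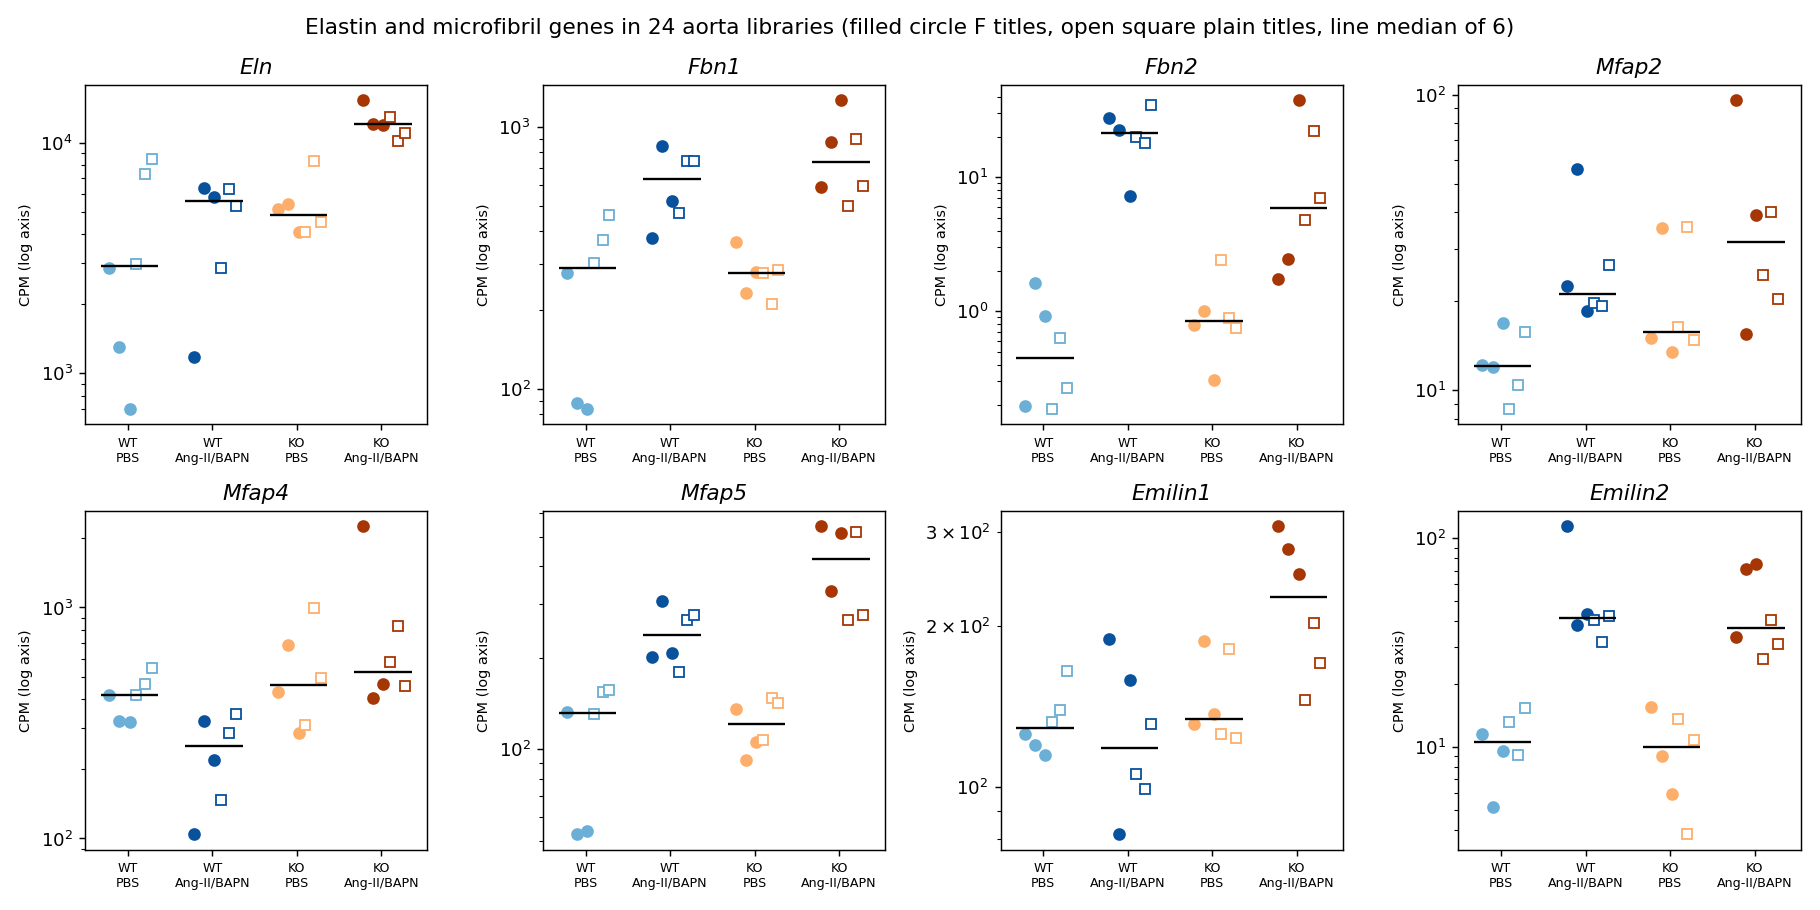
CPM of each gene in each of the 24 libraries on log axes, by genotype and treatment, with F titles as filled circles, plain titles as open squares and the median of 6 libraries as a line. Treated knockout libraries (KO) lie above all treated WT libraries for Eln and Mfap4, and treated WT libraries lie above all WT PBS libraries for Fbn2, Mfap2, Mfap5 and Emilin2.

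Eln (ENSMUSG00000029675, GRCm38 chr5:134702593-134747323, minus strand) encodes tropoelastin. In WT PBS aorta its level ran from 702 CPM through a median of 2910 to 8511 CPM, and in WT Ang-II/BAPN aorta from 1176 through 5575 to 6365 CPM. Knockout libraries ran from 4081 through 4835 to 8353 CPM under PBS and from 10180 through 12030 to 15260 CPM under Ang-II/BAPN. All 6 treated knockout libraries thus lay above every other library, while the 2 WT groups overlapped over most of their range. The log2 fold change on treatment was 0.54 in WT (SE 0.38, edgeR adjusted p = 0.321) and 1.21 in knockout aorta (SE 0.39, adjusted p = 0.0476). Treated knockout exceeded treated WT aorta 2.63-fold (log2 1.39, SE 0.39, adjusted p = 0.0393). Both calls stood close to the threshold. That for the treated genotypes was lost in 11 of 24 fits that each left out 1 library, with adjusted p up to 0.114 without replicate 1 of knockout Ang-II/BAPN F, and that for the knockout response in 17. The 11 were 5 treated knockout libraries (all but F replicate 3), 4 treated WT libraries (F replicate 1 and all of the plain set), replicate 1 of knockout PBS F and replicate 2 of WT PBS F. The 17 were 11 of the 12 knockout libraries (all but PBS plain replicate 2) and 6 WT libraries. The log2 difference itself stayed between 1.17 and 1.56 over 34 alternatives for the genotypes and between 1.11 and 1.41 for the knockout response.

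The WT response of Eln differed in sign between title sets, at 1.46 in the F set (SE 0.55, edgeR adjusted p = 0.0803) and -0.37 in the plain set (SE 0.54, adjusted p = 0.745). In the F set the 3 PBS libraries had 702, 1297 and 2855 CPM and the 3 treated libraries 1176, 5832 and 6365 CPM. In the plain set the PBS libraries had 2964, 7297 and 8511 CPM and the treated libraries 2855, 5318 and 6324 CPM. The libraries with 702 and 1297 CPM, replicates 3 and 2 of WT PBS F, had Rn7sk above 4 CPM, and the library with 1176 CPM had the lowest smooth muscle markers of all. The difference between the responses of the sets was 1.84 (SE 0.77), which did not pass after adjustment (edgeR adjusted p = 0.72). The WT response was 0.17 when the 5 libraries above 4 CPM of Rn7sk were left out, a choice made after the data were seen. That fit kept only replicate 1 of WT PBS F, the library with 2855 CPM.

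Fbn1 (ENSMUSG00000027204, chr2:125300594-125507993, minus strand) encodes fibrillin-1, the main microfibril subunit of adult tissue. It ran from 83.9 through a median of 288 to 460 CPM in WT PBS aorta and from 375 through 631 to 844 CPM after treatment. The knockout range went from 210 through 277 to 363 CPM under PBS and from 500.0 through 737 to 1264 CPM after treatment. Only the knockout groups were free of overlap, and in WT 5 of 6 treated libraries lay above the highest PBS library. The rise was 2.59-fold in WT (log2 1.37, SE 0.30, edgeR adjusted p = 0.00216) and 2.85-fold in knockout aorta (log2 1.51, SE 0.30, adjusted p = 0.00223). Treated genotypes differed by 0.34 (SE 0.29, adjusted p = 0.494), well within the spread between libraries.

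Mfap2 (ENSMUSG00000060572, chr4:141010418-141015814, plus strand) and Mfap5 (ENSMUSG00000030116, chr6:122505845-122528766, plus strand) encode MAGP-1 and MAGP-2, small glycoproteins that bind fibrillin in microfibrils. Mfap5 ran from 52.4 through 132 to 157 CPM in WT PBS aorta, and from 180 through 237 to 308 CPM in WT Ang-II/BAPN aorta. Knockout libraries spanned 92.2 through 121 to 148 CPM under PBS and 266 through 423 to 542 CPM under Ang-II/BAPN, so that treated libraries lay above all PBS libraries in both genotypes. Mfap5 rose by 1.15 on the log2 scale in WT (SE 0.24, edgeR adjusted p = 0.00183) and by 1.74 in knockout aorta (SE 0.25, adjusted p = 0.000116), the smallest adjusted p of the 8 genes in that response. Under treatment it stood 0.75 higher in knockout than in WT aorta (SE 0.24), just short of the threshold (edgeR adjusted p = 0.0653). It passed in only 3 of 34 alternatives, of which DESeq2 gave the lowest adjusted p (0.0301).

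Mfap2 changed less clearly. It ran from 8.68 through 12.1 to 16.9 CPM in WT PBS aorta and from 18.6 through 21.1 to 56.1 CPM in WT Ang-II/BAPN aorta, with no overlap. In knockout aorta it ran from 13.4 through 15.7 to 35.7 CPM under PBS and from 15.6 through 31.8 to 95.6 CPM under Ang-II/BAPN, with broad overlap. The WT rise of 1.08 (SE 0.39, edgeR adjusted p = 0.0482) was lost in 16 of 24 fits that left out 1 library, with adjusted p up to 0.158 and a value of 0.75 without replicate 2 of WT Ang-II/BAPN F, the highest library. The 16 were 9 WT libraries (all but Ang-II/BAPN F replicates 1 and 3 and PBS plain replicate 3) and 7 knockout libraries. In knockout aorta the value was 0.79 (SE 0.39, adjusted p = 0.216).

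Mfap4 (ENSMUSG00000042436, chr11:61485431-61488900, plus strand) encodes a fibrinogen-like glycoprotein that binds tropoelastin and fibrillin-1. Its exons overlap those of Mapk7 on the opposite strand. Since the counting strand is not given in the sources used here, reads of the 2 genes cannot be told apart, but all counts of Mapk7 came to 5.14% of those of Mfap4. Mfap4 ran from 320 through 420 to 547 CPM in WT PBS aorta and from 104 through 251 to 344 CPM in WT Ang-II/BAPN aorta. Knockout libraries spanned 286 through 463 to 994 CPM under PBS and from 406 through 525 to 2250 CPM under Ang-II/BAPN. All 6 treated knockout libraries lay above all 6 treated WT libraries. Neither response passed the test, with -0.80 in WT (SE 0.40, edgeR adjusted p = 0.155) and 0.61 in knockout aorta (SE 0.40, adjusted p = 0.397). Treated knockout exceeded treated WT aorta 3.42-fold (log2 1.77, SE 0.41, adjusted p = 0.0167). Replicate 1 of knockout Ang-II/BAPN F held the 2250 CPM and had high Rn7sk. Without it the difference was 1.10 (adjusted p = 0.0906) and the knockout response -0.06 (adjusted p = 0.948). Without replicate 1 of WT Ang-II/BAPN plain the difference was 1.63 (adjusted p = 0.0538).

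Emilin1 (ENSMUSG00000029163, chr5:30913402-30921277, plus strand) encodes a glycoprotein at the interface of elastin and microfibrils that limits the processing of the TGF-beta precursor in mice. It ran from 115 through 129 to 165 CPM in WT PBS aorta and from 81.5 through 118 to 190 CPM after treatment. The knockout values lay from 124 through 134 to 188 CPM under PBS and from 145 through 226 to 308 CPM after treatment. The treated genotypes overlapped when pooled, but within each title set all 3 knockout libraries lay above all 3 WT libraries (249.8 CPM and above against 190 CPM and below in the F set, 145 and above against 131 and below in the plain set). Treated knockout exceeded treated WT aorta 1.73-fold (log2 0.79, SE 0.18, edgeR adjusted p = 0.0139), and the call held when any single library was left out, but not in the fit of only the treated libraries (adjusted p = 0.0876). The WT response was -0.06 (SE 0.18, adjusted p = 0.855). The knockout response of 0.57 (SE 0.18, adjusted p = 0.0404) was lost in 14 of 24 fits without 1 library, with adjusted p up to 0.119 without replicate 2 of knockout Ang-II/BAPN plain. The 14 were 9 knockout libraries (all but replicate 2 of both PBS sets and replicate 1 of Ang-II/BAPN plain) and 5 WT libraries.

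Emilin2 (ENSMUSG00000024053, chr17:71252172-71311556, minus strand) encodes a second member of the EMILIN family. It ran from 5.12 through 10.5 to 15.4 CPM in WT PBS aorta and from 31.9 through 41.6 to 114 CPM in WT Ang-II/BAPN aorta. Knockout levels went from 3.80 through 9.93 to 15.5 CPM under PBS and from 26.4 through 37.2 to 75.3 CPM after treatment. Treated and PBS libraries did not overlap in either genotype. The rise was 4.78-fold in WT (log2 2.26, SE 0.35, edgeR adjusted p = 0.000102) and 4.54-fold in knockout aorta (log2 2.18, SE 0.35, adjusted p = 0.000336), and the call held in all 34 alternatives in each genotype. Treated genotypes differed by -0.17 (SE 0.33, adjusted p = 0.794). Macrophage markers moved the same way, and all 8 rose in each genotype. The share of all genes called was 24.8% in WT and 11.4% in knockout aorta. The marker sum went from 57.5 to 156 CPM in WT PBS aorta to 587 to 1590 CPM after treatment. In knockout aorta it went from 85.8 to 210 CPM under PBS to 527 to 1071 CPM after treatment. The part of macrophages in the rise of Emilin2 was not tested.

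Of 4 members with windows upstream of RefSeq start sites (build GRCm38.p6), only Emilin2 and Mfap2 had a window free of annotated exons of the gene itself. They are shown for that reason. The Mfap2 window, chr4:141010174-141010417 on the plus strand, ends at the base before the gene's start. Its end within an exon was cut off, which left 244 bases. Such cutting was done for plus-strand windows only. The Emilin2 window, chr17:71311012-71311261 on the minus strand, lies inside the gene's span, upstream of a second start. Capitals mark matches, on either strand, to the GC box GGGCGG and to CAGAC, the SMAD-binding element.
Mfap2: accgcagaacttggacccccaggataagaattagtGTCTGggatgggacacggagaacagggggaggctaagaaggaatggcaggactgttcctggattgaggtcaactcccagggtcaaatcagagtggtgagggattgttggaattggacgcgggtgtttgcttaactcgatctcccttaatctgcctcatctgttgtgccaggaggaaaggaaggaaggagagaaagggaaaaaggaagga
Emilin2: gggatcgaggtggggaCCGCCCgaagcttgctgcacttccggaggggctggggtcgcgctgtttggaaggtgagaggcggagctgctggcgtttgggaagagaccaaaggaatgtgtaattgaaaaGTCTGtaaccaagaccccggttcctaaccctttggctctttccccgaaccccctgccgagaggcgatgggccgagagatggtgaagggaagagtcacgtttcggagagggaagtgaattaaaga
Each window held 1 CAGAC match, which 42.2% of 32851 upstream windows of 250 bases also hold, and the Emilin2 window 1 GC box, which 32.7% hold. Neither held TATAAA or the AP-1 site TGANTCA. The Mfap2 window held 1 E box (CANNTG), as did 66.2% of all windows. A match of letters is a description and does not show that a factor binds there.

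**Figure D3:**
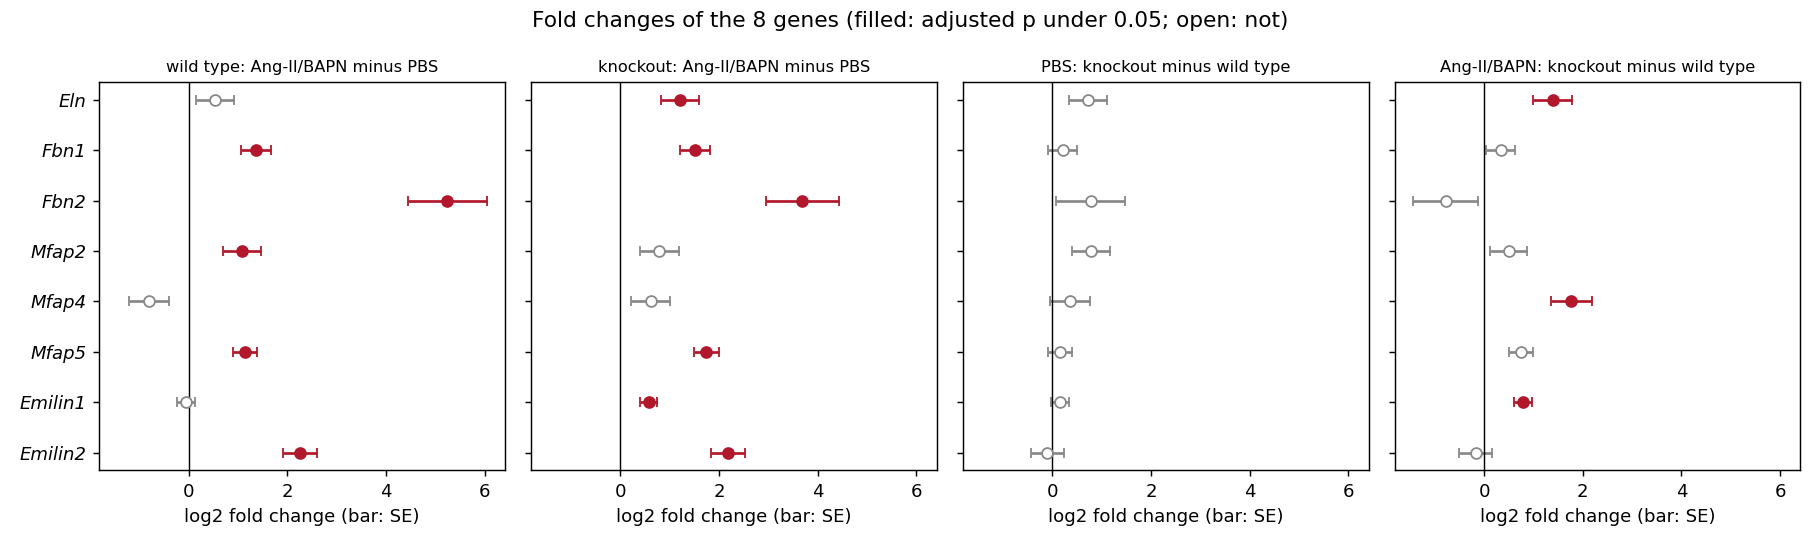
Log2 fold changes of the 8 genes with their standard errors in 4 comparisons, with filled points for an edgeR adjusted p under 0.05. Fbn2 and Emilin2 have the largest responses in both genotypes, and only Eln, Mfap4 and Emilin1 are filled in the comparison of the treated genotypes.

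Under PBS, in the average of the title sets, 0 of the 8 genes differed between genotypes by edgeR, also at an unadjusted p under 0.05, and 0 by DESeq2 or limma. Of all 24623 genes 0% were called by edgeR, and 954 had an unadjusted p under 0.05, which is a share below 0.05. DESeq2 called 88. Cthrc1 itself was among the genes not called (edgeR adjusted p = 0.18). Log2 differences of the 8 genes ran from -0.10 (Emilin2) to 0.79 (Mfap2), with a median of 0.28 against 0.03 over all genes. The value for Eln was 0.73 (SE 0.38, edgeR adjusted p = 1). Without the 5 libraries with high Rn7sk, where only replicate 1 of WT PBS F was kept, the value for Eln was 0.08. With all libraries, in the F set, it was 1.60 (SE 0.55, adjusted p = 0.971), with 4104 to 5437 CPM in knockout and 702 to 2855 CPM in WT aorta. In the plain set it was -0.15 (SE 0.54, adjusted p = 0.967), with 4081 to 8353 CPM in knockout and 2964 to 8511 CPM in WT aorta. Of the 8 genes 2 had an unadjusted edgeR p under 0.05 in the F set, Eln (0.0091) and Fbn1 (0.0315). In the plain set 0 had, and of all 24623 genes 940 and 1370 had in the F and plain set. In the interaction, the difference between the knockout and the WT response, 0 of 8 genes and 0% of all genes were called by edgeR, with 3132 genes at an unadjusted p under 0.05. DESeq2 called 599 genes and limma 81, of which 0 were among the 8. Only Mfap4 (1.41, SE 0.57, edgeR adjusted p = 0.295) and Emilin1 (0.64, SE 0.25, adjusted p = 0.279) of the 8 had an unadjusted p under 0.05. The responses of the genotypes were not shown to differ.

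Within the title sets the calls were fewer. In WT aorta 4 of 8 genes rose in the F set (13.9% of all genes called) and 2, Fbn2 and Emilin2, in the plain set (8.61%). In knockout aorta 5 rose in the F set (6.52%) and 1, Mfap5, in the plain set (1.7%). Between treated genotypes 0 of 8 passed in the F set (0.146%) and 0 in the plain set (0.00812%) by edgeR. An unadjusted p under 0.05 was found for 4 and 3 of the 8, and for 4366 and 2686 of all 24623 genes. The 3 genes called in the average had 1 sign in both sets: Eln differed by 1.56 and 1.23, Mfap4 by 2.28 and 1.27, and Emilin1 by 0.96 and 0.63 in the F and plain set. Tests of the difference between the sets called 0% of all genes and 0 of the 8 for the WT response, and likewise for the knockout response. At an unadjusted p under 0.05 were 1647 and 931 of all 24623 genes, and 1 and 0 of the 8. Under PBS the sets differed in 0.0284% of all genes and in 0 of the 8, with a log2 difference (F minus plain) of -1.08 for Eln (SE 0.39, edgeR adjusted p = 0.674).

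Fbn2 (ENSMUSG00000024598, chr18:58008623-58210487, minus strand) encodes fibrillin-2, the fibrillin of developing elastic tissue. It was almost silent in WT PBS aorta, from 0.187 through a median of 0.449 to 1.61 CPM, or 10 to 86 counts in a library. After treatment it ran from 7.24 through 21.2 to 34.7 CPM, above every WT PBS library. In knockout aorta it ran from 0.307 through 0.843 to 2.41 CPM under PBS and from 1.73 through 5.93 to 37.5 CPM after treatment, and 5 of 6 treated libraries lay above the highest PBS library. The log2 rise was 5.24 in WT (SE 0.80, edgeR adjusted p = 8.56e-05) and 3.69 in knockout aorta (SE 0.74, adjusted p = 0.00245). On log2(FPKM + 1), which compresses changes of low genes, limma gave 1.31 in WT and 0.68 in knockout aorta (adjusted p = 0.0919). Treated genotypes differed by -0.78 (SE 0.66, adjusted p = 0.491). Of the 6 treated knockout libraries 4 lay below the lowest WT value of 7.24 CPM, and without replicate 3 of knockout Ang-II/BAPN F, the highest library, the difference was -2.15 (adjusted p = 0.029). That was the only 1 of 34 alternatives to pass, and the difference was not called with all libraries.

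Ratios of 2 genes within a library do not depend on library size, and 24 comparisons of 6 ratios were tested with exact two-sided permutation within the title sets, where the smallest possible p is 0.005. In WT aorta the ratio of Emilin2 to Emilin1 counts went from a median of 8.74% (4.28 to 9.99%) to 35.5% (27.3 to 60.3%), with no overlap (log2 2.32, exact p = 0.005, adjusted p = 0.024). In knockout aorta it went from 6.79% (2.10 to 11.8%) to 19.2% (10.9 to 30.1%; log2 1.69, exact p = 0.01, adjusted p = 0.0267). The ratio was lower in treated knockout than in treated WT aorta (log2 -0.96, exact p = 0.01, adjusted p = 0.0267).

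The fibrillin mix moved as well. Fbn2 counts were 0.124% of Fbn1 counts in the median WT PBS library (0.0600 to 1.84%) and 3.48% in the median treated WT library (1.39 to 7.42%; log2 3.94, exact p = 0.01, adjusted p = 0.0267). With FPKM values and an offset of 0.1, the log2 difference was 1.84 (adjusted p = 0.084). In knockout aorta the medians were 0.348% and 1.08% (log2 1.55, exact p = 0.045, adjusted p = 0.0831).

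Elastin fell relative to fibrillin-1 in treated WT aorta, and Mfap4 relative to Mfap2. Eln counts went from a median of 1252% of Fbn1 counts to 735% (log2 -0.92, exact p = 0.02, adjusted p = 0.048, and 0.0533 with FPKM). Mfap4 counts went from 3458% of Mfap2 counts to 958% (log2 -1.92, exact p = 0.005, adjusted p = 0.024). In knockout aorta neither ratio passed, with -0.22 and -0.23. Treated knockout exceeded treated WT aorta in both, by 1.25 for Eln to Fbn1 (exact p = 0.01, adjusted p = 0.0267) and by 1.25 for Mfap4 to Mfap2 (exact p = 0.005, adjusted p = 0.024). The ratio of Mfap5 to Mfap2 passed in 0 of 4 comparisons after adjustment, with an exact unadjusted p of 0.04 in the knockout response.

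**Figure D4:**
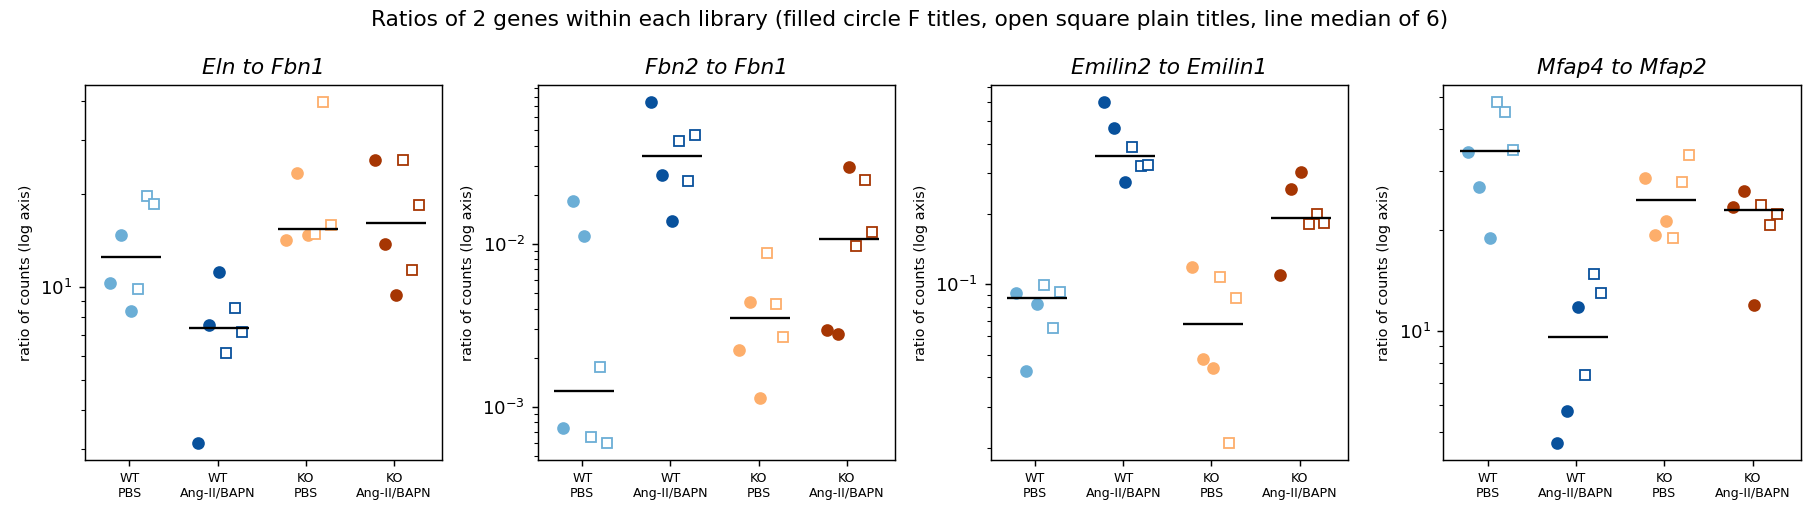
Ratios of the counts of 2 genes within each library on log axes, by genotype and treatment, with F titles as filled circles, plain titles as open squares and the median of 6 as a line. In the Emilin2 to Emilin1 panel all treated WT libraries lie above all WT PBS libraries, and in the Mfap4 to Mfap2 panel all lie below.

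The lysyl oxidase gene Lox was set against its substrate gene in the same way. Lox counts were 5.33% of Eln counts in the median WT PBS library (4.17 to 7.42%) and 22.9% in the median treated WT library (14.3 to 95.0%), with no overlap (log2 2.30, exact p = 0.005, adjusted p = 0.024). In knockout aorta the medians were 5.70% and 8.66% (log2 0.63, exact p = 0.135, adjusted p = 0.203). The ratio was lower in treated knockout than in treated WT aorta (log2 -1.68, exact p = 0.005, adjusted p = 0.024). Lox itself rose from 197 ± 135 to 1070 ± 294 CPM in WT aorta (SD, n = 6, edgeR adjusted p = 3.41e-05) and stood at 1040 ± 368 CPM in treated knockout aorta.

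Smooth muscle markers also differed between the treated genotypes. Over all genes 24.8% were called in the WT response, 11.4% in the knockout response and 6.13% between treated genotypes. The summed CPM of 10 markers was 19160 to 24000 in WT PBS aorta and 1807 to 7327 in WT Ang-II/BAPN aorta, and all 10 fell. In knockout aorta the sum was 16630 to 35420 under PBS and 8332 to 15570 under Ang-II/BAPN, and 5 of 10 fell. Under treatment 7 of 10 were higher in knockout than in WT aorta, and the sums did not overlap. Eln as a percentage of that sum was 65.9 to 132% in treated WT aorta (median 101%) and 72.3 to 151% in treated knockout aorta (median 112%), so that relative to these markers the genotypes overlapped over most of their range. For Mfap4 the percentages were 3.33 to 6.09% (median 5.78%) and 2.63 to 17.1% (median 5.82%), and for Emilin1 1.44 to 10.6% (median 2.37%) and 1.13 to 3.14% (median 1.98%). Under PBS the Eln percentages were 3.23 to 39.2% in WT and 15.4 to 28.7% in knockout aorta, below all treated libraries in both genotypes. On treatment the 10 markers had a median log2 fold change of -2.24 in WT and -0.97 in knockout aorta, against 0.54 and 1.21 for Eln. The part of smooth muscle cells in the differences of Eln, Mfap4 and Emilin1 was not tested.

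**Figure D5:**
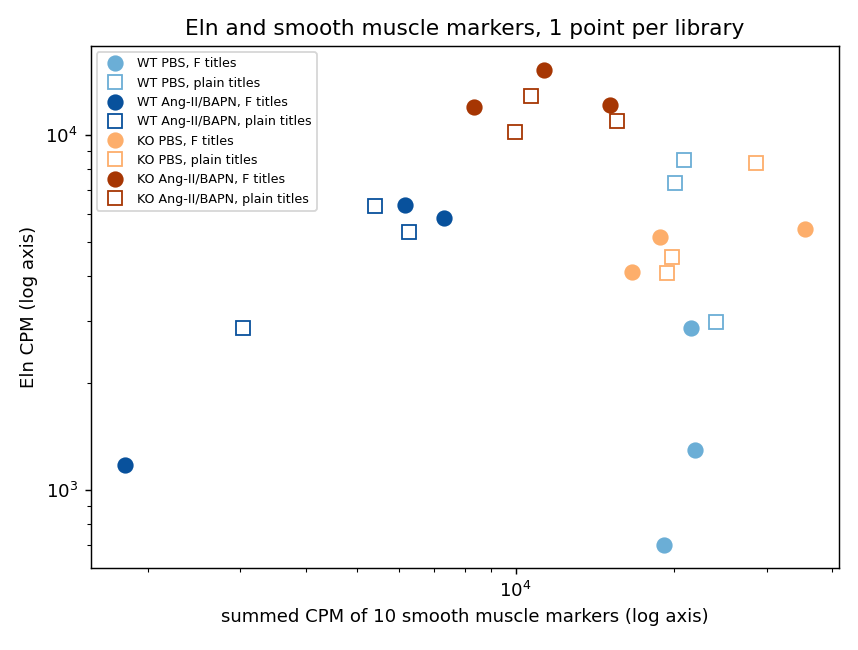
Eln CPM against the summed CPM of 10 smooth muscle markers in the 24 libraries, both on log axes, with F titles as filled circles and plain titles as open squares. Marker sums are scaled to total counts only, and Eln CPM also by TMM factors. Treated WT libraries lie at 1807 to 7327 CPM of markers and treated knockout libraries at 8332 to 15570 CPM with more Eln, while PBS libraries lie further right.

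Markers of other cell types also changed on treatment, where 24.8% of all genes were called in WT and 11.4% in knockout aorta. Of 10 fibroblast markers 2 rose and 1 fell in WT aorta and 6 rose in knockout aorta. Of 7 chondrocyte markers 5 rose and 1 fell in WT and 4 rose in knockout aorta, and of 8 endothelial markers 6 fell in each genotype. Of 6 adipocyte markers 2 fell in WT and 4 in knockout aorta, of 6 kidney tubule markers 0 and 2, of 6 cardiac muscle markers 1 and 0, and of 7 intestinal markers 6 rose in WT and 1 fell in knockout aorta. The part of these cell types in the responses of the 8 genes was not tested.

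The same lists were counted between the treated genotypes, where 6.13% of all genes were called. Of 10 fibroblast markers 3 were higher in treated knockout than in treated WT aorta, with sums of 2829 to 6887 and 1924 to 4979 CPM. Of 7 intestinal markers 6 were lower in knockout, with sums of 0.704 to 6.80 against 0.726 to 328 CPM, and of 6 cardiac muscle markers 1 was higher and of 6 adipocyte markers 1 lower. None of the 8 macrophage, 8 endothelial, 7 chondrocyte or 6 kidney tubule markers passed by edgeR. The part of these cell types in the differences of Eln, Mfap4 and Emilin1 was not tested.

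Other genes of elastic fibre assembly moved in both directions. Of 21 (fibulins, lysyl oxidases, latent TGF-beta binding proteins, proteoglycans and EMILIN relatives) 8 rose and 5 fell in WT aorta, and 11 rose and 1 fell in knockout aorta, with medians of 0.26 and 0.97. Over all genes 24.8% were called in WT and 11.4% in knockout aorta. Ltbp2, a microfibril-bound member of the latent TGF-beta binding protein family, went from 74.7 ± 31.6 to 337 ± 81.7 CPM in WT (edgeR adjusted p = 1.34e-06) and from 73.9 ± 12.6 to 443 ± 136 CPM in knockout aorta (adjusted p = 1.68e-06). The fibulin gene Fbln2 and the lysyl oxidase gene Loxl2 rose in both genotypes, by 1.53 and 2.04 in WT aorta. Between treated genotypes, where 6.13% of all genes were called, 6 of 21 were higher in knockout and 0 lower. They included Loxl1, an oxidase of elastic fibres, at 596 ± 420 against 223 ± 61.3 CPM (adjusted p = 0.0124), and Mfge8, whose product carries the medin peptide, at 655 ± 151 against 342 ± 114 CPM (adjusted p = 0.0136). Ltbp1 and Ltbp3, which tether latent TGF-beta, were also among them, with log2 differences of 1.27 and 0.84.

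Of 9 ADAMTS and ADAMTS-like genes, several of whose products bind fibrillin, 4 fell, 0 rose and 5 did not pass the test in WT aorta, where 24.8% of all genes were called. The median was -0.83. Adamts10 went from 215 ± 23.3 to 78.8 ± 14.7 CPM (edgeR adjusted p = 0.000618), and Thsd4, which encodes ADAMTSL6, from 264 ± 105 to 62.0 ± 46.9 CPM (adjusted p = 0.00253). In knockout aorta 0 of 9 passed by edgeR (11.4% of all genes). Adamts10 was at 228 ± 54.1 CPM under PBS and 247 ± 156 CPM after treatment, and Thsd4 at 232 ± 47.3 and 100 ± 34.9 CPM. Treated knockout exceeded treated WT aorta in 3 of 9 (6.13% of all genes were called), namely Adamts10, Adamtsl4 and Adamtsl5, by 1.63, 1.06 and 1.80.

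Proteases that degrade elastin rose in both genotypes. Of 13 listed 11 were tested, Mmp7 and Ctsv being left out, and 9 rose in WT and 10 in knockout aorta, with medians of 1.62 and 2.27 and 0 falls. Over all genes 24.8% and 11.4% were called. Mmp14, a membrane-bound collagenase that activates Mmp2, went from 66.9 ± 25.7 to 382 ± 77.5 CPM in WT aorta (edgeR adjusted p = 1.34e-06). Ctsl, a lysosomal protease, went from 278 ± 52.0 to 528 ± 133 CPM in knockout aorta (adjusted p = 0.000738). Between treated genotypes 0 of 11 passed by edgeR (6.13% of all genes).

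Of 13 integrin and receptor genes that bind fibrillin or elastin, 2 rose and 2 fell in WT aorta, 2 rose in knockout aorta, and 1 was higher in treated knockout than in treated WT aorta. Over all genes 24.8%, 11.4% and 6.13% were called in these comparisons, near the shares of the integrin and receptor genes. The fallers were Itga8 and Itga9, integrin α-chains, at -1.91 and -1.53, and the risers Lgals3 (2.84) and Glb1 (0.58), the latter the gene from which the elastin-binding protein is spliced. Of 10 TGF-beta genes 2 rose and 1 fell in WT and 3 rose in knockout aorta. Between treated genotypes 3 were higher in knockout, namely Tgfb3, the inhibitor gene Smad7 and the target gene Ccn2, by 1.21, 0.69 and 1.17. Under PBS and in the interaction 0 members of these 5 lists passed by edgeR, and 0% of all genes did.

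Genes most like each member were found from the root mean square difference of the 8 group means of log2 CPM, each gene centred on its mean, among 13410 named genes of at least 2 CPM. For Eln they were Sfrp2, Sphkap and Adamts2, the last a procollagen protease, at 0.35 to 0.42. For Fbn1 they were Col5a1 (0.16), which encodes a collagen V chain, Adgrd1 and Il1r1, and for Mfap5 Medag (0.13) and again Adgrd1. Fbn1 and Mfap5 were also the closest pair among the 8, at 0.23. Mfap2 lay closest to Ostc, Rcan1 and Manf (0.14 to 0.15), Mfap4 to Mrgprf, Islr and Pam (0.15 to 0.18), Emilin1 to Ccdc8, P3h4 and Scarf2 (0.08 to 0.10) and Emilin2 to Pappa and Ccbe1 (0.12 and 0.16). Fbn2 had no close neighbour, with Fgl1, Slc7a11 and Runx3 at 0.47 to 0.50, and stood furthest from the other 7, the nearest being Emilin2 at 1.31.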

How the data were processed

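Total RNA of mouse aorta was sequenced from stranded libraries, per the labels. The authors deposited 1 table of 24 used libraries, with counts as whole numbers and FPKM beside them. The submitters' processing notes name HISAT2, StringTie, DESeq2 and GRCm38, without versions or roles. How counts were made and whether strand was used is not given in the sources used here, and 4 columns of 2 libraries not described in the labels were not used. Nothing says which animals libraries share, so p-values measure the spread between samples, which may be technical.

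Counts were tested with edgeR 4.0.16 (R 4.3.3): filterByExpr (minimum count 10, total 15; 15518 genes left out), TMM and a robust quasi-likelihood fit with 8 means of genotype, treatment and title set. Contrasts averaged over title sets were adjusted over all 24623 genes, with a threshold of 0.05. SE was derived from F. CPM uses TMM factors, except for Xist, Ddx3y, Rn7sk, the summed markers and the percentages of the smooth muscle sum, which use total counts. The spread between libraries limits precision (common coefficient of variation 57%). Ratios used counts + 0.5. The test was checked on simulated data. Alternatives included DESeq2 1.42.0 and limma 3.58.1. Named genes are the 8, up to 4 called per list and comparison by adjusted p (where fewer than 2 were called, counts only are given), 3 similar genes per member (some are not reported here), and Cthrc1; Mapk7, Xist, Ddx3y and Rn7sk were added. Members and lists were chosen with earlier results of these data known.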

Additional observations from a re-analysis of the deposited data

Results flagged for a closer look

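In 6 of 32 groups of 6 libraries, each a gene in 1 genotype and treatment, 1 library stood far from the others by Dixon's test. A rate of about 1 in 20 groups by chance holds for normally distributed values. The test was run on CPM without a log, and the 32 groups share libraries, so the count cannot be set against that rate. All 6 were high values. Eln was at 8353 CPM in replicate 2 of knockout PBS plain, where the next library had 5437 CPM, and Fbn2 at 2.41 CPM in replicate 1 of that group against 1.01 CPM. Replicate 1 of knockout Ang-II/BAPN F was high in Mfap2 (95.6 CPM, next 40.1) and in Mfap4 (2250 CPM, next 832). In WT Ang-II/BAPN F, replicate 2 was high in Mfap2 (56.1 CPM, next 26.5) and replicate 1 in Emilin2 (114 CPM, next 43.4). Rn7sk was 4.82 CPM in the first of these libraries and 11.3 CPM in replicate 1 of knockout Ang-II/BAPN F. Replicate 1 of WT Ang-II/BAPN F had the lowest sum of smooth muscle markers, 1807 CPM. Their part in these values was not tested.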

How the results depend on the processing

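Of 1352 alternative log2 fold changes of the 8 genes, 1238 kept direction and side of the threshold, 85 lost the call, 4 gained it and 25 changed sign. Under alternatives, Emilin2, Fbn1 and Mfap5 kept their calls in both responses, and Fbn2 in all but limma in knockout aorta. The call between treated genotypes was lost in 18 of 34 alternatives for Eln, 3 for Mfap4 and 1 for Emilin1, which was the fit of only the libraries compared. That fit called 0 genes and 0 of the 8. Genes called between treated genotypes numbered 907 without a filter, 543 with the replicate block, 3230 by DESeq2 and 828 without the libraries with high Rn7sk, against 1510. Leaving out 1 library gave 507 to 2081 genes and 1 to 4 of the 8, the lowest without replicate 1 of knockout Ang-II/BAPN F or, for the 8, also without replicate 1 of WT Ang-II/BAPN plain. It gave 1681 to 3563 genes for the knockout response (1681 without replicate 2 of knockout Ang-II/BAPN plain), 0 to 5 under PBS and 0 to 87 in the interaction. DESeq2 called 88 genes under PBS and 599 in the interaction, where limma called 81. Causes were not tested.

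Sign changes concerned genes without a call. The WT response of Emilin1 was 0.02 without a filter and 0.20 by limma, and -0.19 to 0.08 without 1 library. The knockout response of Mfap4 was -0.06 to 0.89 without 1 library. Under PBS, Emilin2 was -0.32 to 0.09 without 1 library. Without the libraries with high Rn7sk, Fbn1 was -0.11, Emilin1 -0.07, Mfap5 -0.20 and Mfap4 -0.24 under PBS. That fit kept only replicate 1 of WT PBS F. Between treated genotypes Emilin2 was -0.31 to 0.17 without 1 library. In the interaction Emilin2 was 0.12 with the replicate block, 0.05 without high Rn7sk and -0.29 to 0.26 without 1 library. There Fbn1 was -0.21 by limma and -0.30 to 0.32 without 1 library, and Mfap2 -0.78 to 0.04. Of 48 alternative ratios 45 kept their side, 2 lost it, and Fbn2 to Fbn1 under PBS was -0.13 with FPKM.

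Replicate numbers gave no sign of pairing: same-numbered deviations correlated at -0.424 to 0.422, over 0.1 in 7 of 36 pairs. Deviations with different numbers correlated at -0.462 to 0.410, over 0.1 in 23 of 72 pairs. With 3 libraries per group, these values cannot exclude pairing. With the replicate block 4, 4 and 2 of the 8, and 4857, 1930 and 543 genes in all, were called in the WT response, the knockout response and between treated genotypes.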
